A study of Mus musculus with 11 samples.

Results

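Pvalb interneuron nuclei of the mouse cortex were the 299 nuclei, of 112539 that passed the filters in 11 libraries, that held 3 or more UMIs of Gad1 and Gad2 together, at most 1 of Slc17a7, 2 or more of Pvalb, at most 1 of Sst and at most 4 of Adarb2. UMIs, the random tags added before amplification, let each captured transcript be counted 1 time. The rule thus asks for transcripts of the GABA-making enzymes and of parvalbumin, and limits those of the vesicular glutamate transporter of excitatory neurons, of somatostatin, and of a gene that marks Vip and Lamp5 interneurons. It used measured values, so the levels of these genes describe the choice and are no result. A nucleus that met the first pair of conditions was counted as GABAergic, and 16286 nuclei did. These conditions do not limit the GABAergic nuclei to interneurons.

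Parvalbumin is a calcium buffer, and the interneurons that make it are born in the medial ganglionic eminence (MGE), fire fast and briefly with little adaptation, and contact the cell bodies or axon initial segments of pyramidal cells. Their speed rests on Kv3 potassium channels, synaptotagmin 2 at their terminals and a dense supply of mitochondria, and many are wrapped in a perineuronal net of matrix proteins. They pace cortical gamma rhythms, and their network is studied in tauopathy because it shapes the excitability of the cortex.

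The libraries came from frozen cortex of mice labelled female, 1 library per mouse, whereas the study's reporting notes give male mice for RNA sequencing, and Xist, transcribed from the inactive X of females, stood at 433 to 1016 CPM in the Pvalb nuclei of each library. Non-transgenic mice (Ikbkb+/+, n = 4) and P301S mice (Ikbkb+/+ with the P301S+ tau transgene, n = 3) carried no Cre and had floxed Ikbkb or the silent IkbkbCA allele. Per the paper, littermate controls without Cre received tamoxifen too. Knockout P301S mice (Ikbkb-/- with P301S+, n = 2) had Ikbkb, the gene for the NF-κB kinase IKKβ, removed by tamoxifen-induced Cx3cr1-CreERT2 recombination, and active IKKβ P301S mice (IkbkbCA with P301S+, n = 2) switched on a constitutively active IKKβ in the same way. Cx3cr1 drives Cre in microglia and not in neurons, so these manipulations act on Pvalb nuclei from outside, and the effects of the IKKβ alleles cannot be told apart from those of the CreERT2 knock-in that only these groups carry. The P301S+ line is PS19, in which the mouse prion promoter drives human tau in neurons. Ages were 9.8 to 10.85 months in non-transgenic, 9.15 to 10.75 in P301S, 8.39 to 9.15 in knockout P301S and 9.8 to 10.85 in active IKKβ P301S mice, so the knockout group was the youngest.

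Libraries held 72007219 to 93205362 UMIs. Any pair of libraries shared 15 to 45 barcodes, at most 0.425% of the smaller library, and 7 of the 299 Pvalb barcodes recurred in another library, none (0) of them as a Pvalb nucleus there. Ikbkb stood at 28.8 to 84.2 UMIs per 1000000 (CPM) in the Pvalb nuclei, where no deletion is directed. In nuclei rich in microglia transcripts it stood at 105.8 to 128 CPM in the 7 mice with intact IKKβ, at 96.6 and 108 CPM in the knockout mice and at 133 and 144 CPM in the active IKKβ mice, and since 3′ tags need not vanish with a deleted exon this checks the labels only in part. The human tau sequence cannot be read from these mouse gene counts. Gm43049, a long non-coding RNA chosen after its values were seen, held 1 to 5 UMIs in all nuclei of each non-transgenic library and 502 to 1053 in each P301S library. Since it was picked for this separation, it is no independent check of the labels.

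The nuclei carried the transcripts of Pvalb interneurons well beyond the genes that chose them. Kcnc2, a Kv3 channel subunit, had a UMI in 97.7% of the nuclei with a median of 28, and Btbd11, a postsynaptic protein of interneurons, in 99.7% with a median of 16. Excitatory nuclei, chosen by 3 or more Slc17a7 UMIs and at most 1 of Gad1 and Gad2 together, had a median of 13656 UMIs against 13923 in Pvalb nuclei, and in them Btbd11 had a UMI in 5.52% and Pvalb in 0.828%. Sst nuclei met the GABAergic and Adarb2 conditions with 2 or more Sst and at most 1 Pvalb UMIs. Kcnc2 was less selective, with a UMI in 75.2% of excitatory nuclei. Pooled over libraries, Btbd11 stood at 1254 CPM in Pvalb nuclei, 204 in Sst nuclei, 248 in other GABAergic nuclei and 5.63 in excitatory nuclei. Of the MGE-lineage regulators Sox6 had a UMI in 96.0% of Pvalb and 13.2% of excitatory nuclei, Maf in 93.0% and 14.4%, and Lhx6 in 60.9% and 0.542%, while Nkx2-1, a regulator of their embryonic precursors, had 0 UMIs in the 299 nuclei. These markers did not go against the label.

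By ratio of pooled CPM to the other GABAergic nuclei, among genes over 50 CPM, the 15 leading genes were Pvalb, Mybpc1, Gm26633, Syt2, Adamtsl5, Gm26673, Mypn, Adamts15, Cemip, Tmem108, Myo1e, Adgra3, Hunk, Eya4 and Pde5a. Each was higher in Pvalb nuclei in all 11 libraries, which describes nuclei chosen for their type and is no test. Syt2, the fast calcium sensor of transmitter release, stood at 372 CPM against 43.9 in other GABAergic and 6.53 in Sst nuclei. Mybpc1, a myosin-binding protein best known from muscle, stood at 82.2 against 7.66 CPM. Cemip, which degrades hyaluronan, stood at 955 against 136 CPM, and Adamts15, a protease of matrix proteoglycans, at 51.8 against 7.22 CPM. Of the perineuronal net, Acan, the gene of aggrecan, reached 44.1 CPM against 4.32 in other GABAergic nuclei, and Bcan, the gene of brevican, 109 against 24.3 CPM. Ppargc1a, which drives mitochondrial genes, stood at 325 against 124 CPM, and Esrrg, its partner receptor, at 1576 against 537 CPM.

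**Figure D1:**
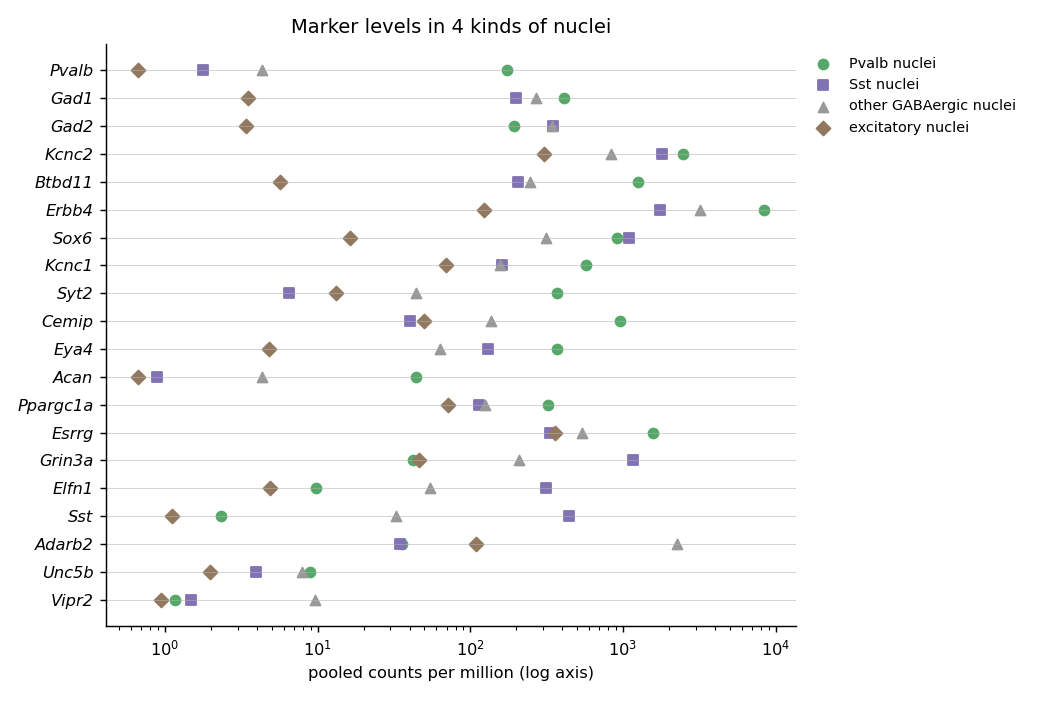
Pooled CPM (log axis) of 20 genes in Pvalb nuclei (circles), Sst nuclei (squares), other GABAergic nuclei (triangles) and excitatory nuclei (diamonds). Pvalb, Sst, Gad1, Gad2 and Adarb2 reflect the rules that chose the nuclei, while Syt2 at 372 and Cemip at 955 CPM in Pvalb nuclei lie to the right of the 3 other kinds.

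Among themselves the nuclei differed widely in some markers. Il1rapl2, a synaptic organiser listed as a marker of basket cells, the soma-contacting kind, was at 0 in 73 of the 299 nuclei, with a median of 7 UMIs, an upper quartile of 33 and a maximum of 208. Eya4, a transcriptional co-activator listed as a Pvalb subtype label, was at 0 in 89 nuclei with a median of 4. By library, the share of nuclei with an Il1rapl2 UMI ran from 59.1% to 90.0%. Of other basket-type markers Kcnc1 was found in 98.7% and Syt2 in 83.6% of nuclei, while Tpbg had 0 UMIs in the 299 nuclei. Shares of the listed Tac1 and Rspo2 are not given here. Reln, listed with the Sst interneuron transcripts, was found in 27.1%. Chandelier-type markers, of the cells that contact axon initial segments, were rare: 40 nuclei held 1 or more of the 5 markers and 2 held more than 1, with Unc5b in 6.69%, Cpne5 in 4.68%, Vipr2 in 1.67%, Pthlh in 0.669% and Col15a1 in 0.334%. Cpne5 had a UMI in 48.7% of excitatory nuclei, and no chandelier-type marker passed the filter for testing.

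Pvalb itself was captured thinly. Of the 299 nuclei 196 held exactly 2 Pvalb UMIs, 71 held 3, and 32 held 4 to 6. Just outside the threshold lay 581 nuclei with 1 Pvalb UMI that met every other condition. Their medians were 25 Kcnc2 and 11 Btbd11 UMIs at 11259 total UMIs, against 27.5 and 16 at 13555 total UMIs in the nuclei with 2 Pvalb UMIs, whereas the 8755 nuclei with 0 had medians of 1 and 0. Most nuclei just outside the threshold thus looked like those just inside. A second set of nuclei was therefore read beside the first, chosen after the data were seen by 10 or more Kcnc2 and 5 or more Btbd11 UMIs in place of the Pvalb condition. It held 1745 nuclei, 241 of them among the 299, and is called the Kcnc2-Btbd11 set below. In it 1090 nuclei had 0 Pvalb UMIs.

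No difference in the share of Pvalb nuclei between genotypes passed the test, and with 2 against 3 mice the IKKβ contrasts could not have passed. Non-transgenic libraries held 34, 22, 22 and 20 Pvalb nuclei, P301S libraries 28, 18 and 10, knockout libraries 30 and 40, and active IKKβ libraries 32 and 43. As shares of GABAergic nuclei these were 2.28, 1.55, 2.50 and 1.20% in non-transgenic mice, 1.75, 0.991 and 0.608% in the P301S group, 2.13 and 3.23% in knockout P301S mice, and 1.88 and 3.06% in active IKKβ P301S mice. By this share both manipulated groups lay above all 3 P301S libraries, and the P301S range overlapped the non-transgenic range. The means were 1.88% ± 0.612 (SD, n = 4), 1.12% ± 0.580 (SD, n = 3), 2.68% ± 0.781 (SD, n = 2) and 2.47% ± 0.833 (SD, n = 2). The order of the libraries depended on the measure. With 1 or more Pvalb UMIs, P301S replicate 1 stood at 5.87%, above knockout replicate 1 at 5.68% and active IKKβ replicate 1 at 5.22%. As a share of Pvalb and Sst nuclei, P301S replicate 1 stood at 28.6%, above 22.9% and 26.4% in the same libraries.

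Two-sided exact permutation tests of the mean share gave p = 0.171 for P301S against non-transgenic mice, p = 0.2 for knockout against P301S mice, p = 0.2 for active IKKβ against P301S mice and p = 0.912 for all 7 P301S mice against 4. Adjusted over these 4 contrasts the smallest value was 0.267. With 3 mice against 2 the smallest possible p is 0.1. The 95% exact binomial interval of a single library, which covers counting error only, ran from 0.292 to 1.12% in P301S replicate 3 and from 2.32 to 4.38% in knockout P301S replicate 2. Because the rule asks for captured Pvalb RNA, fewer Pvalb cells and less Pvalb RNA per cell cannot be told apart in this share. The mix of nuclei also differed by library. GABAergic nuclei numbered 1602, 1817 and 1644 in P301S libraries, beside 759, 531 and 788 excitatory nuclei. Knockout libraries held 1409 and 1237 beside 1062 and 1134, and active IKKβ libraries 1704 and 1407 beside 1361 and 1181. Non-transgenic libraries held 1491, 1422, 880 and 1673 beside 897, 924, 1294 and 944. The part of this mix in the shares was not tested.

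Between groups, mean depth had the same order as the mean share, though within the non-transgenic group the deepest library had the lowest share. Median UMIs per Pvalb nucleus were 14430, 12757, 12444 and 15735 in non-transgenic, 10550, 12029 and 10619 in P301S, 14932 and 16488 in knockout P301S, and 12395 and 15709 in active IKKβ P301S libraries. All 3 P301S medians lay below the 8 others, with p = 0.0571 for P301S against non-transgenic mice and p = 0.1 for each manipulated group against P301S mice in two-sided exact permutation tests, and 0.133 for all 3 after adjustment over 4 contrasts. When every nucleus was thinned to 5000 UMIs, 1 to 6 nuclei per library still met the rule, too few to read an order. The part of depth in the shares was not tested further.

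**Figure D2:**
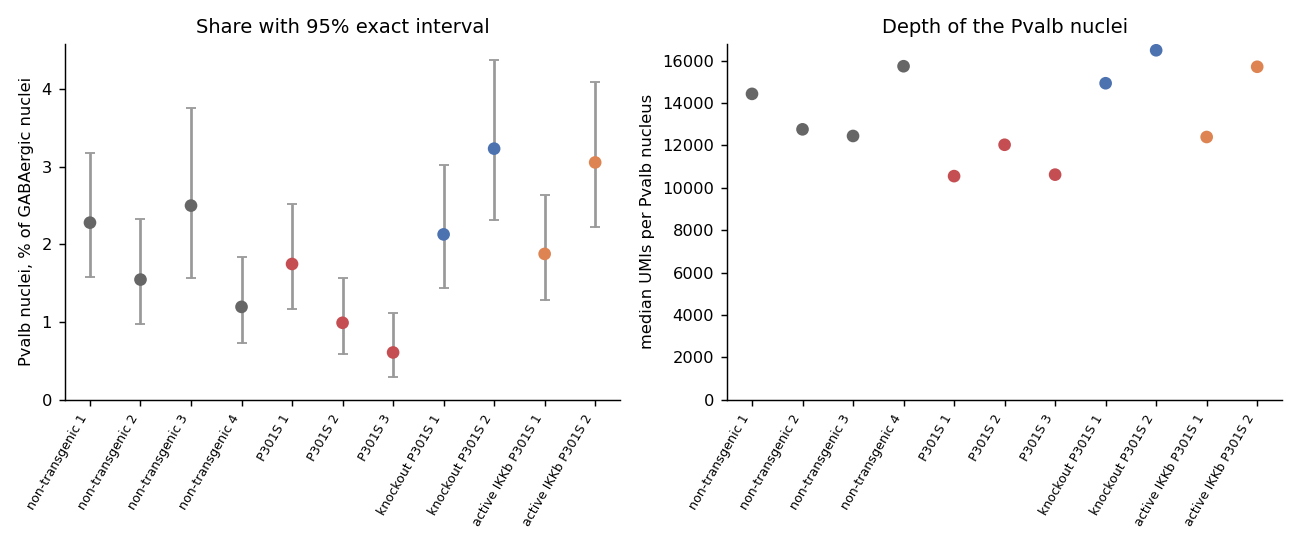
Left, share of Pvalb nuclei among GABAergic nuclei in percent for each of the 11 libraries, with 95% exact binomial intervals as bars. Right, median UMIs per Pvalb nucleus in the same libraries, grey for non-transgenic, red for P301S, blue for knockout P301S and orange for active IKKβ P301S mice. The 3 P301S libraries have the lowest medians, from 10550 to 12029.

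In the Kcnc2-Btbd11 set, whose rule asks for no Pvalb UMI but does ask for minimum counts of other genes, shares of GABAergic nuclei were 14.7% ± 5.57 (SD, n = 4) in non-transgenic, 7.70% ± 2.02 (SD, n = 3) in P301S, 11.3% ± 0.993 (SD, n = 2) in knockout P301S and 10.1% ± 2.13 (SD, n = 2) in active IKKβ P301S mice. The 7 P301S mice averaged 9.40% ± 2.25 (SD, n = 7), a difference of -5.28 percentage points from the non-transgenic mean, at an exact permutation p = 0.0455, or 0.182 after adjustment over 4 contrasts. Median UMIs per nucleus of this set were 9646 to 9974 in the 3 P301S libraries, below the 10410 to 15202 of the 8 others, and the part of depth in these shares was not tested. The level of Pvalb within this set was 54.1, 37.8, 39.5 and 38.7 CPM in non-transgenic mice, 52.0, 39.0 and 26.6 CPM in the P301S group, 47.5 and 61.0 CPM in knockout P301S mice and 56.9 and 61.5 CPM in active IKKβ P301S mice. These ranges overlapped except for the active IKKβ pair, which lay above all P301S and non-transgenic values, and the smallest adjusted p of the 4 exact permutation tests was 0.497.

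Counts summed per mouse over the Pvalb nuclei, 129892 to 713400 UMIs, left 5735 genes to test with edgeR. At an adjusted p under 0.05 and an absolute log2 fold change over 0.1, P301S against non-transgenic mice called 1 gene (0.0174% of genes tested), knockout against P301S mice 0, active IKKβ against P301S mice 1 (0.0174%), and the mean of the 3 P301S groups against non-transgenic mice 0. At an unadjusted p under 0.05 there were 318, 330, 342 and 325 genes. DESeq2's Wald test called 1, 1, 3 and 0 genes. The median standard error of a log2 fold change was 0.31, 0.33, 0.34 and 0.23 in these contrasts, so changes of small size were not detectable in most genes. The P301S libraries served as the base of both IKKβ contrasts and as one side of the first, so these contrasts share samples. The mean of the 3 P301S groups includes the knockout and active IKKβ groups, which alone carry CreERT2. That contrast therefore does not separate the tau transgene from Cre and IKKβ status.

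The called gene was Gm28928 in both cases, a long intergenic non-coding RNA at chr1:124505757-124846039 on the minus strand of GRCm38. It stood at 273, 282, 176 and 226 CPM in non-transgenic mice, at 441, 1109 and 792 CPM in the P301S group, at 239.5 and 343 CPM in knockout P301S mice, and at 148 and 216 CPM in active IKKβ P301S mice. All 3 P301S libraries lay above the 8 others. The log2 fold change was 1.77 ± 0.26 (SE, adjusted p = 0.00843) for P301S against non-transgenic mice, -1.50 ± 0.30 (adjusted p = 0.252) for knockout and -2.16 ± 0.32 (adjusted p = 0.0103) for active IKKβ against P301S mice.

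A few nuclei held much of this signal. The median Pvalb nucleus held 1 to 2 Gm28928 UMIs in all 11 libraries. A single nucleus gave 100 of the 115 UMIs of P301S replicate 3 (87.0%) and 92 of the 137 UMIs of P301S replicate 1 (67.2%). In P301S replicate 2, the library with the highest level, the top nucleus gave 28.5%, and the nucleus with the most UMIs of all, 144 (61.5% of its library), was in knockout P301S replicate 2. Excitatory nuclei held 4801 CPM of Gm28928, against 320 CPM in the pooled Pvalb nuclei, and excitatory neuron transcripts in Pvalb nuclei summed to 4374, 5442 and 4728 CPM in the P301S libraries. Replicate 2 lay above the non-transgenic range of 4006 to 5155 CPM and the other 2 lay within it. Much of this sum came from Nrg1, Hs6st3 and Mef2c, at 1356, 1428 and 1289 of 4980 CPM in non-transgenic replicate 1. Mef2c is also on the list of MGE-lineage regulators, so the sum does not measure RNA of excitatory neurons alone. Of the 299 nuclei 38 (12.7%) were marked as doublets, against 8.42% of all nuclei, and without them Gm28928 stood at 94.6 to 146 CPM in non-transgenic, 116 to 122 CPM in P301S, 151 and 151 CPM in knockout P301S and 148 and 191 CPM in active IKKβ P301S mice. The log2 fold change was then -0.01 (adjusted p = 0.999) for P301S against non-transgenic mice and 0.52 (adjusted p = 0.955) for active IKKβ against P301S mice. Leaving out P301S replicate 2 (1.37, adjusted p = 0.141) or 3 (1.72, adjusted p = 0.0784) also ended the first call. Leaving out P301S replicate 3 (-2.10, adjusted p = 0.061), active IKKβ replicate 1 (-1.95, adjusted p = 0.354) or 2 (-2.45, adjusted p = 0.115) ended the second, as did breeding line as a covariate (-2.03, adjusted p = 0.139), where both active IKKβ mice are of the IkbkbCA line and 2 of the 3 P301S mice of the floxed line. Both calls were also lost with 1 or more Pvalb UMIs (1.32, adjusted p = 0.0938, and -1.78, adjusted p = 0.151) and in the Kcnc2-Btbd11 set (0.64, adjusted p = 0.965, and -0.94, adjusted p = 0.603).

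**Figure D3:**
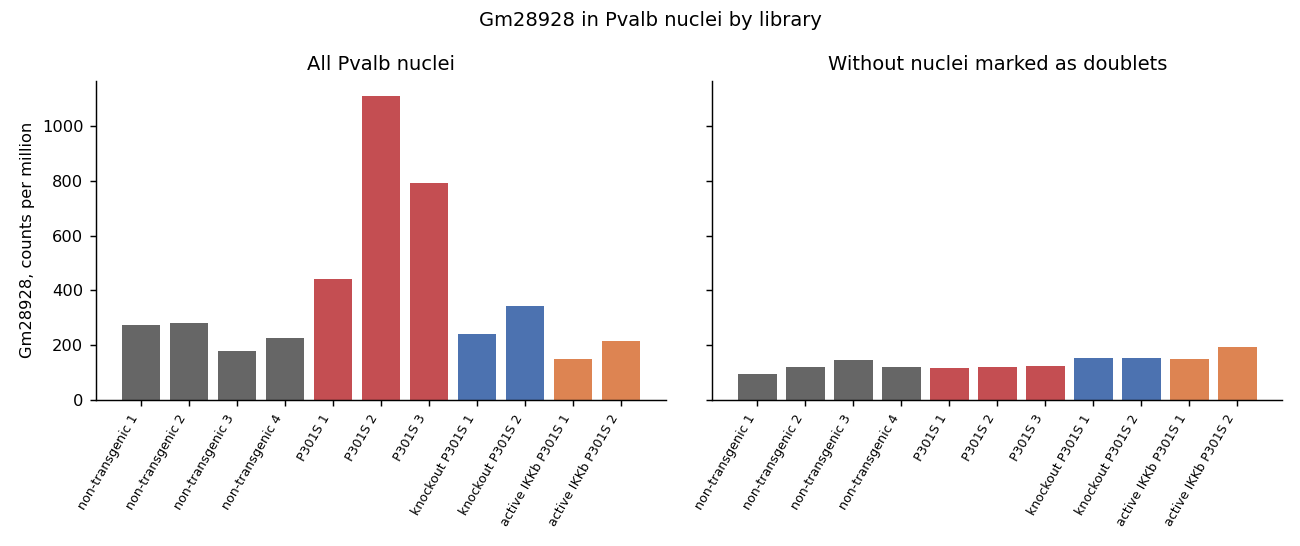
Gm28928 in CPM per library (bars), in all 299 Pvalb nuclei on the left and without the 38 nuclei marked as doublets on the right, grey for non-transgenic, red for P301S, blue for knockout P301S and orange for active IKKβ P301S mice. The high P301S bars of the left panel, up to 1109, are 116 to 122 on the right. Values on the left carry TMM scaling and those on the right do not.

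No gene that marks Pvalb interneurons passed the test. At most 0.0174% of the 5735 genes tested in the Pvalb nuclei passed in any contrast, and 0 for all P301S mice. This count therefore says nothing particular about the markers. Kcnc2 stood at 2568, 2319, 3458 and 1953 CPM in non-transgenic, 2647, 1944 and 1426 in P301S, 2693 and 2510 in knockout P301S and 2678 and 2441 in active IKKβ P301S mice, with overlapping groups and a log2 fold change of -0.10 ± 0.14 (adjusted p = 0.963) for all P301S mice. Btbd11 stood at 1179 to 1279 CPM in non-transgenic and at 1044 to 1605 CPM in the 7 P301S mice, a log2 fold change of 0.10 ± 0.13 (adjusted p = 0.961). The rule bounds the counts of Pvalb, Gad1 and Gad2, so their log2 fold changes of 0.04, -0.09 and 0.01 are no result. Of the 18 MGE-lineage regulators 10 could be tested and 0 were called, beside at most 0.0174% of all genes. The median log2 fold change of these regulators was 0.07 for all P301S mice beside -0.01 over all genes. The largest of them by level, Mef2c, Sox6 and Zeb2, gave -0.25 ± 0.11, -0.13 ± 0.14 and -0.11 ± 0.12.

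Of the 439 genes on 27 lists 216 could be tested in the 299 nuclei, and 0 were called in the 4 contrasts, where at most 0.0174% of all genes were called, so this count says nothing particular about the lists. Of 27 fast-spiking channel genes 24 were tested, 13 higher and 11 lower in all P301S mice, with a median log2 fold change of 0.02. They include Cacna1a, the P/Q-type calcium channel of fast-spiking terminals, at 0.10, Kcnmb2, a BK channel subunit, at 0.07, and Kcnc1, the other Kv3 subunit, at 0.17 ± 0.13 (adjusted p = 0.919). Of 27 genes of GABA synthesis, transport and release 20 were tested, with a median of -0.02, and Syt1, the calcium sensor of most synapses, stood at -0.15 ± 0.10. On the same list Rims1 gave -0.08 ± 0.10 and Rims2 -0.37 ± 0.11 (adjusted p = 0.774). Syt2 gave -0.07 ± 0.15 from 381, 282, 341 and 489 CPM in non-transgenic mice and 248 to 468 CPM in the 7 P301S mice. GABA receptor genes (13 of 15 tested) had a median of -0.06 and glutamate receptor genes (21 of 24) one of -0.03, with Gria1, an AMPA receptor subunit, at -0.03 ± 0.13.

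Perineuronal net genes (9 of 28 tested) had a median of 0.13, and Tnr, tenascin R, gave 0.10 ± 0.11. Mitochondrial and energy regulators (22 of 34) had a median of -0.06, with Esrrg at -0.02 ± 0.13 and Ppargc1a at -0.16 ± 0.15. Synaptic adhesion and Erbb4 signalling genes (26 of 33) were lower in 19 and higher in 7, with a median of -0.12. Erbb4, the neuregulin receptor through which these cells receive excitatory synapses, stood at 10293, 9622, 10174 and 7460 CPM in non-transgenic mice and at 6147 to 9394 CPM in the 7 P301S mice, a log2 fold change of -0.23 ± 0.10 (adjusted p = 0.849). The groups overlapped through non-transgenic replicate 4. Basket-type markers (4 of 6) had a median of 0.05 and Pvalb subtype labels (10 of 18) one of -0.11, with Il1rapl2 at -0.41 ± 0.14 (adjusted p = 0.849).

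Mapt, the mouse tau gene, stood at 357, 366, 450 and 445 CPM in non-transgenic and 317 to 503 CPM in the 7 P301S mice, a log2 fold change of 0.05 ± 0.12 (adjusted p = 0.989), and the tau gene and tau kinases (20 of 26) had a median of -0.02. NF-κB pathway genes (8 of 22) were higher in 4 and lower in 4. Nfkb1, a subunit gene of NF-κB, stood at 110.3, 131, 120 and 97.2 CPM in non-transgenic mice, at 158, 123 and 165 in the P301S group, at 164 and 151 in knockout P301S mice and at 140.4 and 168 in active IKKβ P301S mice. That is a log2 fold change of 0.44 ± 0.15 for all P301S mice with an adjusted p of 0.849, beside 0.06 ± 0.07 in the Kcnc2-Btbd11 set. Few activity-induced genes (5 of 28), stress and degeneration genes (4 of 24) or interferon-stimulated genes (1 of 26) were abundant enough to test. Of the 5 activity-induced genes tested 2 were higher and 3 lower in all P301S mice. Homer1, a postsynaptic scaffold that activity induces, gave -0.32 ± 0.16 (adjusted p = 0.849), and Rheb, on the same list, 0.50 ± 0.23 (adjusted p = 0.849). For P301S against non-transgenic mice alone, Homer1 gave 0.09 ± 0.21 and Rheb 0.85 ± 0.30. The lower Homer1 mean thus came from the knockout and active IKKβ groups.

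In the IKKβ contrasts, where 0 and 1 of 5735 genes were called, 0 list genes were. Against P301S mice, fast-spiking channels had medians of 0.01 in the knockout and 0.05 in the active IKKβ contrast, synaptic adhesion genes 0.01 and -0.12, mitochondrial regulators 0.07 and 0.15, and NF-κB pathway genes 0.13 and 0.08, beside -0.02 and -0.01 over all genes. Activity-induced genes had medians of -0.46 and -0.53, from 5 tested genes of which 3 and 5 were lower. The 28 listed genes summed to 277 to 352.5 CPM in non-transgenic, 296 to 393 CPM in P301S, 246 and 251 CPM in knockout and 249.6 and 244 CPM in active IKKβ libraries. How many other lists separate these libraries is not given here. In the Kcnc2-Btbd11 set the sum of active IKKβ replicate 1, at 321.5 CPM, lay within the P301S range of 306 to 339 CPM. In the Pvalb nuclei Homer1 alone gave 110 and 98.3 CPM of the knockout sums and 93.6 and 103 CPM of the active IKKβ sums. Cemip stood at 1172.5, 926, 713 and 884 CPM in non-transgenic mice and at 702, 750.4 and 538 CPM in P301S mice. Its values of 1029 and 1050 CPM in knockout and 1144 and 1006 CPM in active IKKβ mice lay within the non-transgenic range. The knockout and active IKKβ contrasts gave 0.54 ± 0.19 (adjusted p = 0.85) and 0.60 ± 0.19 (adjusted p = 0.572), beside 0.28 ± 0.12 and 0.16 ± 0.12 in the Kcnc2-Btbd11 set.

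**Figure D4:**
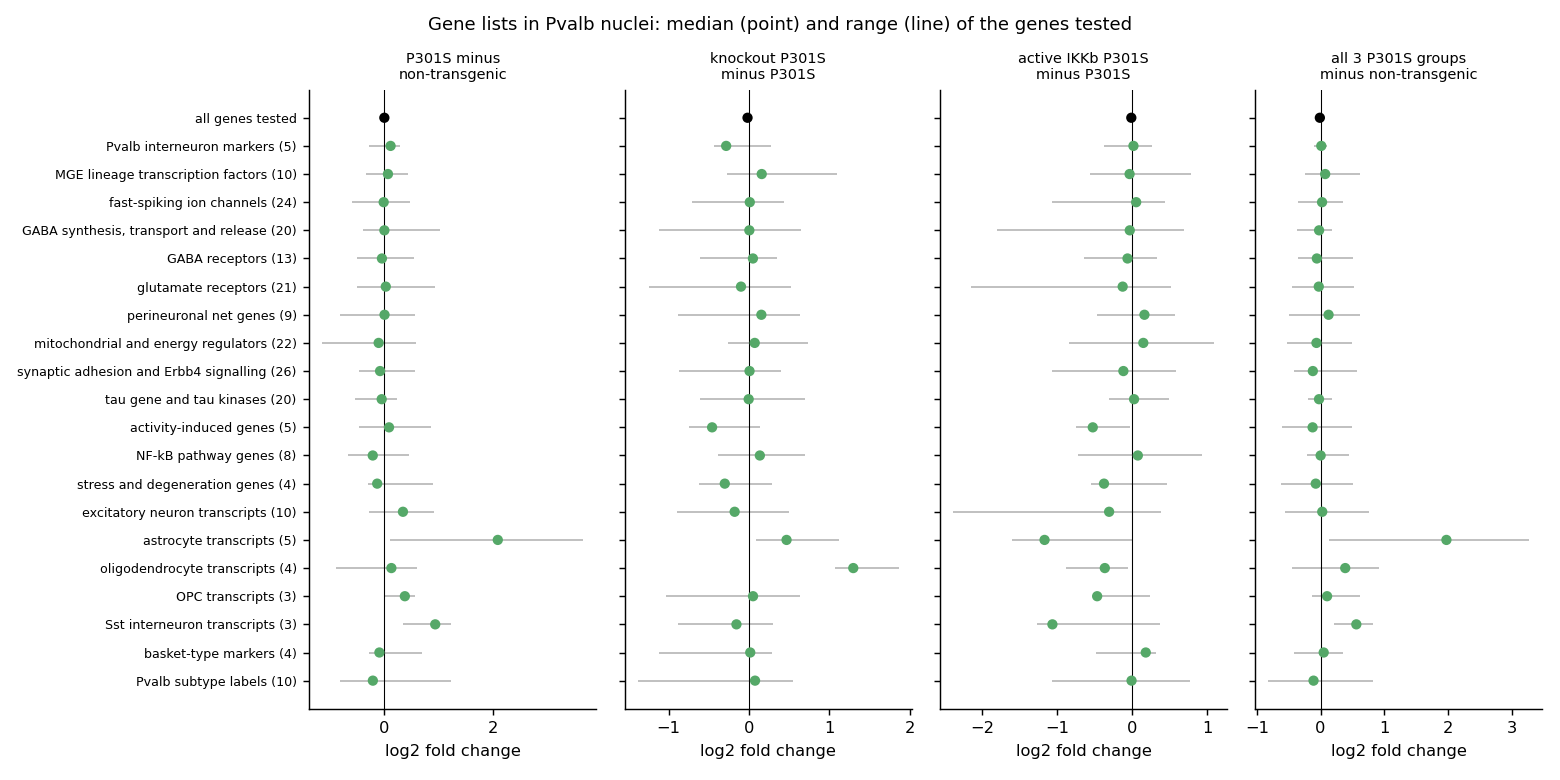
Median (point) and range (line) of the log2 fold changes of the tested genes on each list, with the number tested in brackets, in Pvalb nuclei for the 4 contrasts, and the median over all 5735 genes in black. Fast-spiking channels centre at -0.01, 0.01, 0.05 and 0.02 in the 4 panels, while astrocyte transcripts, from 5 tested genes, reach a median of 2.09 in the first and 1.98 in the last.

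Astrocyte transcripts moved with the libraries. The 10 listed genes summed to 533 to 661 CPM in non-transgenic, 585 to 1585 CPM in P301S, 1177 to 1422 CPM in knockout P301S and 652 to 707 CPM in active IKKβ P301S Pvalb nuclei, and 0 of the 10 genes lacked counts in all libraries. Gpc5 reached 448 CPM in P301S replicate 3 and 268 and 332 CPM in the knockout libraries, against 18.8 to 81.7 CPM in the 8 others, and 1 nucleus supplied 63.5% of the astrocyte UMIs of P301S replicate 3. Of the defining markers Aqp4 had a UMI in 1.34% and Gfap in 1.34% of Pvalb nuclei. Oligodendrocyte transcripts summed to 282 and 518 CPM in knockout P301S mice and to 51.9 to 370 CPM elsewhere, microglia transcripts to 29.0 to 92.8 CPM and excitatory neuron transcripts to 3614 to 5442 CPM in any library. Striatal projection neuron transcripts summed to 854.5 to 1071 CPM in the P301S group, below the 1086 to 1628 CPM of the 8 other libraries. Most of this sum was 1 gene, Pde10a, at 724 to 972 CPM in the P301S group and 980 to 1451 CPM in the 8 others. How many other lists or genes separate these libraries is not given here. Sst interneuron transcripts summed to 171 to 264 CPM in the P301S group, above the non-transgenic range of 86.3 to 151 CPM and overlapping the knockout range of 132 to 236 CPM. Their part in the contrasts was not tested beyond leaving out marked doublets.

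Unc5c, a netrin receptor that guides axons, was lower in the mean of the 3 P301S groups than in non-transgenic mice when doublets were left out or more nuclei were taken. In the 299 nuclei it stood at 469, 479.9, 398 and 376 CPM in non-transgenic mice, 209, 524 and 476 CPM in the P301S group, 259 and 214 CPM in knockout P301S mice, and 224 and 173 CPM in active IKKβ P301S mice. P301S replicates 2 and 3 lay with the non-transgenic libraries and the other 5 below them, and the log2 fold change was -0.06 ± 0.24 (adjusted p = 0.9995) for P301S against non-transgenic mice and -0.70 ± 0.19 (adjusted p = 0.728) for all P301S mice. Without the marked doublets, P301S replicate 2 stood at 248 CPM, and 6 of the 7 P301S mice (161 to 248 CPM) lay below the non-transgenic range of 361 to 459 CPM. P301S replicate 3, with 8 Pvalb nuclei left, stood at 389 CPM. The log2 fold change for all P301S mice was then -0.94 (adjusted p = 0.00534). With Pvalb nuclei defined by 1 or more Pvalb UMIs it was -0.73 (adjusted p = 0.0276). In neither setting was Unc5c called for P301S against non-transgenic mice. Without P301S replicate 1, the knockout and active IKKβ contrasts called Unc5c lower, at -1.21 (adjusted p = 0.0321) and -1.46 (adjusted p = 0.00483).

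In the Kcnc2-Btbd11 set Unc5c stood at 494, 562, 528 and 562 CPM in non-transgenic, 292, 298 and 291 in P301S, 256 and 291 in knockout P301S and 256 and 267 in active IKKβ P301S mice. Every P301S library lay below every non-transgenic one. The log2 fold change was -0.85 ± 0.09 (adjusted p = 5.25e-05) for P301S against non-transgenic mice and -0.95 ± 0.07 (adjusted p = 1.16e-07) for all P301S mice, while the knockout and active IKKβ contrasts gave -0.13 ± 0.10 (adjusted p = 0.846) and -0.17 ± 0.10 (adjusted p = 0.827). The lower level was not shown to be particular to these cells, since the difference in fold change was -0.24 ± 0.13 against Sst nuclei (adjusted p = 1) and -0.57 ± 0.11 against excitatory nuclei (adjusted p = 0.593).

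**Figure D5:**
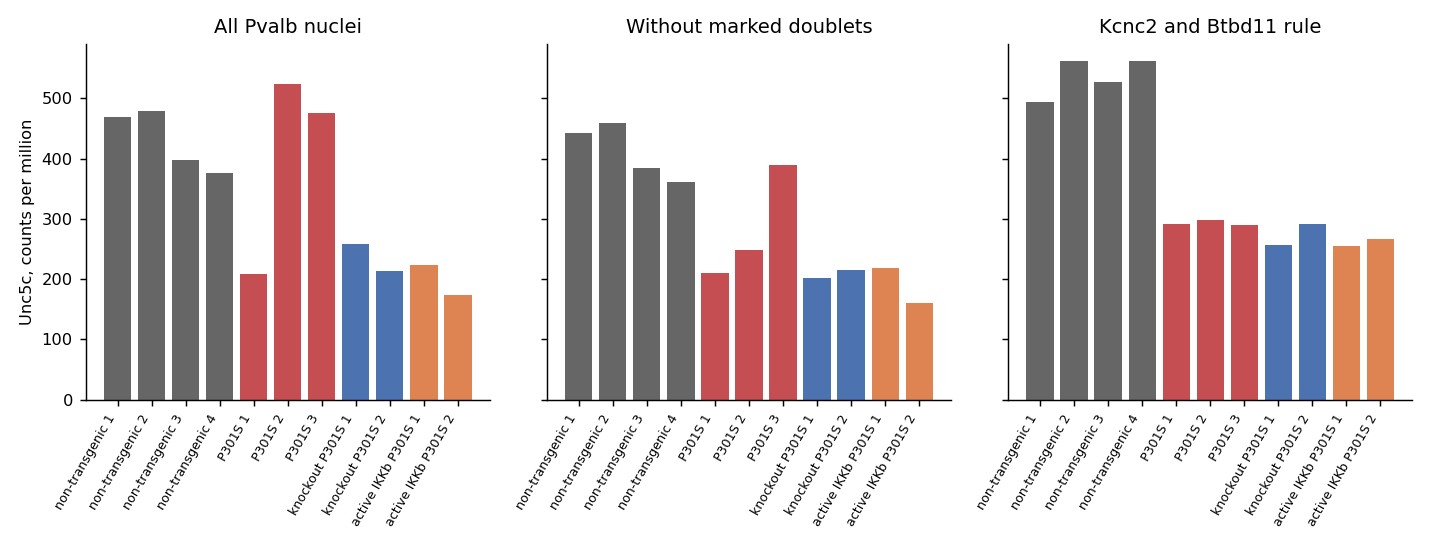
Unc5c in CPM per library (bars) in all 299 Pvalb nuclei, in those not marked as doublets, and in the 1745 nuclei of the Kcnc2-Btbd11 set, grey for non-transgenic, red for P301S, blue for knockout P301S and orange for active IKKβ P301S mice. In the right panel the 7 P301S bars, 256 to 298, lie below the 4 grey bars, 494 to 562. The middle panel carries no TMM scaling.

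The Kcnc2-Btbd11 set called 1 gene (0.00906% of 11034 tested) for P301S against non-transgenic mice, 0 and 0 in the knockout and active IKKβ contrasts, and 7 (0.0634%) for all P301S mice. At an unadjusted p under 0.05 there were 526, 792, 694 and 801 genes, and DESeq2 called 1, 0, 1 and 12, the last with no adjusted p given for 7915 of the genes, so that it is not like the edgeR count. Beside Unc5c, the genes lower in all P301S mice were Sema3a, a secreted guidance cue that binds perineuronal nets (-0.72 ± 0.12, adjusted p = 0.0136), Tenm2, a synaptic adhesion receptor (-0.51 ± 0.08, adjusted p = 0.0136), Cdh12, a cadherin (-0.45 ± 0.08, adjusted p = 0.0236), and the non-coding B230209E15Rik (-0.64 ± 0.11, adjusted p = 0.0219). Sema3a stood at 109, 114, 71.5 and 76.2 CPM in non-transgenic and 46.6 to 67.5 CPM in the P301S mice. Tenm2 stood at 4224, 3944, 4430 and 4014 CPM in non-transgenic and 2036 to 3616 CPM in the P301S mice. Unc5c was called in each of 20 alternatives run on this set, while the other calls depended on single libraries: without non-transgenic replicate 1 there was 1 call, and without active IKKβ replicate 1 there were 14. Striatal projection neuron transcripts summed to 1311 to 1669 CPM in the P301S mice and 1481 to 2171 CPM in the non-transgenic mice of this set, and astrocyte transcripts to 813 and 1075 CPM in the knockout libraries and 502 to 632 CPM elsewhere, and their part was not tested.

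The genes higher in P301S mice were scarce. Alpk1, an innate immune kinase, held 3, 5, 0 and 2 UMIs in the non-transgenic libraries of the set and 4 to 28 in the P301S libraries (2.89 ± 0.46, adjusted p = 0.0136), and was not called without marked doublets. Gm43049 held 1 UMI in the 4 non-transgenic libraries together and 3 to 18 in each P301S library (4.65 ± 0.73, adjusted p = 0.0136), a fitted value that depends on how near-zero counts are handled. Alpk1 and Gm43049 passed the expression filter only through the P301S libraries, where they are higher. Their calls are therefore no independent support for a rise. In the 299 Pvalb nuclei all 15 Gm43049 UMIs came from P301S mice, and Alpk1 held 0 to 2 UMIs in each non-transgenic and 1 to 8 in each P301S library, too few to test. Gm43049 (chr3:140692038-140760704), Unc5c (chr3:141465216-141834924) and Alpk1 (chr3:127670310-127780527), in GRCm38, lie on 1 chromosome, and Gm43049 ends 704512 bases before Unc5c begins.

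The response of Pvalb nuclei was not shown to differ from that of their neighbours. A test of the interaction of cell type and genotype, with a term per mouse, called 0 of 5735 genes against the 873 Sst nuclei (246 at an unadjusted p under 0.05) and 0 against the 10875 excitatory nuclei (250). With genes kept by their counts in either type, a filter added after the data were seen, the excitatory comparison called 25 genes, so that count depends on which genes are tested. The median standard errors of these differences were 0.26 and 0.23 on the log2 scale.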

How the data were processed

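Nuclei of frozen cortex from 11 mice were sorted by DAPI and sequenced with 10x 3′ v3 chemistry. The authors deposited raw UMI counts per gene and barcode, made with Cell Ranger 3.1.0 against mm10 with introns counted, and per the labels used Seurat 3.0 afterwards. Of 114118 barcodes, 112539 were kept after leaving out those under 300 or over 8000 genes and those over 5% mitochondrial. Doublets were marked by a nearest-neighbour score at 0.8% per 1000 barcodes, and removed only in an alternative. Counts were summed per mouse and tested with edgeR 4.0.16 (R 4.3.3, TMM, filterByExpr, quasi-likelihood test, all 4 groups in 1 fit), with Benjamini-Hochberg adjustment over all genes tested, and with DESeq2 1.42.0 as an alternative. Shares and depths were tested by exact permutation over all splits of the mice, and the exact binomial intervals were made with scipy 1.17.1. CPM of named genes carry TMM scaling, while those pooled over libraries, those without doublets and the Ikbkb values do not. Coordinates are GRCm38, from GENCODE M21, which matched 31011 of 31053 genes. Named genes were those called in a contrast, label check genes, the Pvalb markers, the 3 highest genes of each list and the 15 leading genes, plus any said to be chosen later. Listed markers (Maf, Lhx6, Acan, Bcan, Pthlh, Col15a1, Tpbg, Aqp4, Gfap, Nkx2-1) were named as descriptions of the cell type with no test, and were chosen after their values were seen. The members, lists and tests were chosen with earlier results of these data known. The fits were also run on simulated counts with planted fold changes and a common spread. Those counts held no doublets or single high nuclei, so they do not check the calls made here. Each library is a separate mouse. Summed counts per mouse ran from 129892 to 713400, so the smallest library limits its group most. The result of 1 list gene is not reported here.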

Additional observations from a re-analysis of the deposited data

Results flagged for a closer look

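In the 4 non-transgenic mice, 4 of 76 tested values had 1 library far from the other 3 by Dixon's criterion, and chance alone gives about 1 in 20. Pvalb in the Kcnc2-Btbd11 set stood at 54.1 CPM in replicate 1, above 37.8 to 39.5 CPM in the others. Zeb2, a regulator of interneuron migration, stood at 667.6 CPM in replicate 4, below 883 to 908 CPM, and Tnr at 1222 CPM in the same library, above 983 to 1006 CPM. Mbp, a myelin gene, stood at 82.2 CPM in replicate 1, against 18.8 to 28.2 CPM in the others, and that library also had the highest oligodendrocyte sum of its group, 370 CPM.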

How the results depend on the processing

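Of the 4 contrasts in Pvalb nuclei, P301S against non-transgenic mice called 2 genes with the number in the sample's title (1 or 2 within each breeding line) as a replicate block, 9 with 1 or more Pvalb UMIs, Gm28928 not among them, and 0 with 3 or more Pvalb UMIs, without marked doublets or without P301S replicates 2 and 3. The knockout contrast called 5 with 1 or more Pvalb UMIs, and 1 each with DESeq2, no expression filter, the block, 3 or more Pvalb UMIs, or without P301S replicates 2 and 3. The active IKKβ contrast called 1 with 1 or more Pvalb UMIs, which was Grm3, 3 with DESeq2, 2 with the block, and 0 with breeding line as a covariate, 3 or more Pvalb UMIs, no doublets, the Kcnc2-Btbd11 rule, or without P301S replicates 2 and 3. All P301S mice gave 7 with the Kcnc2-Btbd11 rule, and 1 each with no filter, the block, 1 or more Pvalb UMIs, no doublets, thinning, or without P301S replicates 2 and 3. Against Sst nuclei no filter gave 1. Against excitatory nuclei no filter or the line gave 1, the block 2, and genes kept in either type 25.

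In the Kcnc2-Btbd11 set, P301S mice gave 2 without a filter, with the block or without doublets, and 3 with the line. The knockout contrast gave 3 with only the groups compared and 1 when thinned, the active IKKβ contrast 1 with DESeq2 and 2 with only the groups compared, and all P301S mice 12 with DESeq2 and 3 with only the groups compared or when thinned. The Kcnc2-Btbd11 rule and its settings, the removal of 2 libraries together, the Sst-based share and the either-type filter were chosen after seeing the data. Leaving out P301S replicates 2 and 3 leaves 1 P301S mouse, assumed to vary like the other groups. Deviations of same-numbered mice of 1 line had correlations of -0.109 to 0.154 over 10 pairs, 2 of them over 0.1. In groups of 2 mice the deviations are equal and opposite, so same-number and different-number values mirror each other. This check therefore cannot decide whether the numbers are a pairing. Some same-numbered mice shared an age, such as non-transgenic replicate 3 and active IKKβ replicate 1 at 10.85 months, and others did not.

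Leaving out 1 mouse gave 0 to 4 calls for P301S, 0 to 3 for knockout, 0 to 7 for active IKKβ and 0 to 2 for all P301S mice, with 0 to 1 against Sst and 0 to 2 against excitatory nuclei. The highest counts of the first 3 came without P301S replicate 1, and those of all P301S mice and against excitatory nuclei without non-transgenic replicate 4. In the Kcnc2-Btbd11 set the ranges were 1 to 3, 0 to 1, 0 to 4 and 1 to 14. Gm28928 had log2 fold changes of -0.011 and 0.52 without doublets in the P301S and active IKKβ contrasts. In the knockout contrast it was called by DESeq2 (-1.52, adjusted p = 0.00883) and by edgeR with no expression filter (-1.43, adjusted p = 0.0473). The replicate block (-1.57, adjusted p = 0.0325) and leaving out P301S replicate 1 (-1.82, adjusted p = 0.00269) also called it there. Without doublets the knockout log2 fold change was 0.34.

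The share difference of all P301S mice, 0.0684 percentage points, was -0.920 with 1 or more Pvalb UMIs, -0.0163 without doublets, -5.28 with the Kcnc2-Btbd11 rule, -0.0598 of Pvalb and Sst nuclei, and -0.0812 as a log2 share. Without 1 mouse the share differences were -1.08 to -0.512 for P301S, 1.01 to 2.12 for knockout, 0.762 to 1.94 for active IKKβ and -0.160 to 0.292 for all P301S mice. Median UMIs differed by -3257 to -2144, 3866 to 5422, 1329 to 4643 and -1136 to 35.7, and for all P301S mice by 673 with 1 or more Pvalb UMIs and 410 with the Kcnc2-Btbd11 rule. Pvalb in the Kcnc2-Btbd11 set differed by -9.74 to 2.93, 8.28 to 21.9, 13.8 to 26.4 and 4.62 to 10.5 CPM. Causes were not tested.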

Other observations

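Slc25a3, the mitochondrial phosphate carrier, was singled out after its values were seen. It stood at 64.9, 97.3, 67.5 and 94.0 CPM in Pvalb nuclei of non-transgenic mice, at 25.8, 33.0 and 41.4 CPM in P301S mice, and at 82.0 to 91.6 CPM in the 4 knockout and active IKKβ P301S mice. The edgeR log2 fold change of P301S against non-transgenic mice was -1.26 ± 0.31 (adjusted p = 0.571), so Slc25a3 did not pass the threshold. The 3 P301S libraries lay below the 8 others, but the share of all 5735 tested genes that do so is not given here. A gene picked for this order is therefore no result.

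In the Kcnc2-Btbd11 set 14 of 16 tested activity-induced genes, which neuronal firing switches on, were lower in all P301S mice, with a median log2 fold change of -0.31 beside 0.0004 over all genes. None (0) was called, which says little of so short a list where 7 of 11034 genes (0.0634%) were called in that contrast. In the 299 Pvalb nuclei 3 of 5 were lower. Oligodendrocyte transcripts were higher in 8 of 8 tested genes of the Kcnc2-Btbd11 set, with a median of 0.46 for the mean of the P301S groups, and again 0 were called against the same 0.0634%. This did not hold in each group: the listed genes summed to 206 to 301.4 CPM in P301S, 242 and 307 CPM in knockout P301S, 88.8 and 160 CPM in active IKKβ P301S and 124 to 199 CPM in non-transgenic mice, and the active IKKβ contrast had 8 of 8 lower than in P301S mice, with a median of -1.12.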
